A study of Homo sapiens with 12 samples.

Results

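The subject here was the set of nuclear genes for subunits of the mitochondrial respiratory chain and ATP synthase, read across 4 treatment groups of MDA-MB-468 cells. Members were chosen by name and by a mean of at least 5 TPM (the length-corrected share of transcripts in a library) over 12 libraries. The names were the NDUFA, NDUFB, NDUFC, NDUFS and NDUFV families, SDHA to SDHD, the UQCR genes and CYC1. They also took in the nuclear COX5 to COX8 families and the ATP5F1, ATP5M and ATP5P families. Of 59324 rows in the table, 179 matched the name pattern, 93 of these were dropped because the name ended in P plus digits (the form of pseudogene names), and 77 of the 86 left passed the minimum. They comprised 36 subunits of complex I, 4 of complex II, 9 of complex III, 11 of complex IV and 17 of complex V. NDUFA4 was counted in complex IV, of which it is a subunit despite its name, and COX7A2L was counted there by its name. The lowest mean inside the minimum was that of NDUFA5, at 22.7 TPM. The highest outside it was that of the read-through gene ATP5MF-PTCD1, at 2.12 TPM. The other 8 names below the minimum included COX7A1 and COX7B2, both listed at 0 in all libraries, and NDUFA4L2, at 0.694 TPM. COX4I1, COX4I2 and NDUFAB1 encode subunits but are not caught by the name pattern; their values are given beside the members.

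RNA from a human basal-like breast cancer line, MDA-MB-468, was sequenced in 4 groups of 3 libraries. The groups were untreated or vehicle-treated control cells (the labels say only control), cells given SAHA, cells given sonidegib, and cells given both. SAHA (vorinostat), an inhibitor of zinc-dependent histone deacetylases, was used at 10 µM for 12 h. Sonidegib, an inhibitor of the Hedgehog signal transducer SMO, was used at 10 µM with a 72 h pretreatment; the labels give this dose and time for the combination, and the sonidegib group is taken to have had the same. All groups were the same cell line, with no genetic change named. Whether libraries of one group stem from separate cultures is not given in the labels, and the p-values below therefore measure only the spread between these libraries.

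Complexes I to IV pass electrons from NADH and succinate to oxygen by way of ubiquinone and cytochrome c, and complexes I, III and IV pump protons across the inner mitochondrial membrane. Complex V uses the returning protons to make ATP. Complex II is built from nuclear subunits alone, whereas complexes I, III, IV and V also hold subunits encoded by the mitochondrial genome, so that nuclear and mitochondrial products must be assembled together.

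RefSeq promoters (250 bases before to 50 after the start, GRCh38.p14) were found for 63 of the members in 76 entries. NRF1, ETS-family factors, YY1 and ERR-family receptors are known regulators of respiratory genes, and their core motifs were searched on both strands together with CCAAT and TATA boxes. The NRF1 motif (GCGCA, any base, then GCGC) was present in 21.1% of the members' promoters, against 10.1% of the promoters of all tested genes. The ETS motif CCGGAAG was present in 27.6%, against 17.3%. The YY1 motif AAGATGG, which contains the letters of a start codon, was present in 25%, against 7.09%. The ERR motif AAGGTCA was present in 15.8%, against 2.65%, CCAAT in 32.9%, against 35.1%, and TATAAA in 7.9%, against 6.09%. These are letter matches, which describe the sequences and do not show binding. The 5 stretches of 30 bases below show matches (capitals) in RefSeq promoters of members whose values are described further on, and 140 bases of the promoter of NDUFS4, the member with the largest fall after SAHA, hold no match to any of the 6 motifs (its YY1 match lies after them). RefSeq and GENCODE release 29, the source of the gene coordinates given further on, differ in where some of these genes start. The NDUFS3 and NDUFA2 stretches, and the last bases of the SDHD and NDUFS4 ones, lie inside the GENCODE genes. All 6 stretches were picked after values and matches had been seen. They are written 5′ to 3′ on the gene's own strand.
NDUFA12: acctagctctGCGCACGCGCagagccacca
NDUFA9: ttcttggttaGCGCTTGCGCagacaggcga
SDHD: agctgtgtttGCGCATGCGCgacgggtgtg
NDUFS3: cgCTTCCGGctccacgtccgcCCGGAAGaa
NDUFA2: acaatactTTTATAtcATTGGccaagcttt
NDUFS4: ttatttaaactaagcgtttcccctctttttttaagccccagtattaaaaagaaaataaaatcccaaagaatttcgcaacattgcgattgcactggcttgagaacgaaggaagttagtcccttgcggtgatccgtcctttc
The capitals mark an NRF1 motif in NDUFA12 (chr12:95003794-95003823, minus strand), NDUFA9 (chr12:4649024-4649053, plus strand) and SDHD (chr11:112086753-112086782, plus strand), the one in NDUFA9 being read on the opposite strand. They mark a pair of ETS motifs, one on each strand, in NDUFS3 (chr11:47578970-47578999, plus strand). In NDUFA2 (chr5:140647695-140647724, minus strand) they mark TATAAA and CCAAT, both on the opposite strand. The NDUFS4 stretch is chr5:53560499-53560638, plus strand. Among the 63 members, the median change after sonidegib was -0.32 (log2) in the 16 with an NRF1 motif and -0.14 in the 47 without one. After SAHA these medians were -0.21 and -0.04. For the YY1 motif the medians after SAHA were -0.23 in 18 members with it and -0.02 in 45 without it, and after sonidegib both were -0.21. For the ETS motif they were -0.17 in 20 and -0.04 in 43 after SAHA, and -0.20 and -0.22 after sonidegib. For the ERR motif they were -0.19 in 11 and -0.07 in 52 after SAHA, and -0.22 and -0.20 after sonidegib. For CCAAT the order was the other way, with 0.0014 in 22 and -0.19 in 41 after SAHA, and -0.12 and -0.22 after sonidegib. For TATAAA they were -0.21 in 6 and -0.12 in 57 after SAHA, and -0.11 and -0.22 after sonidegib. These medians are descriptions without a test.

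Together the 77 members made up 2.23% ± 0.05 of all TPM in control libraries (SD, n = 3). Their summed level was 21807, 22415 and 22737 TPM in the control libraries, 20290, 20344 and 20799 with SAHA, 19524, 18676 and 18476 with sonidegib, and 19325, 20341 and 20747 with the combination. Every control library was above every treated one, and the sonidegib libraries overlapped only the lowest combination library. The most abundant members were UQCRH, with a mean of 1263 TPM, and NDUFS5, with 1242 TPM. Depth cannot be read from TPM, and a lower share of the library cannot be told apart from more RNA of other genes.

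**Figure D1:**
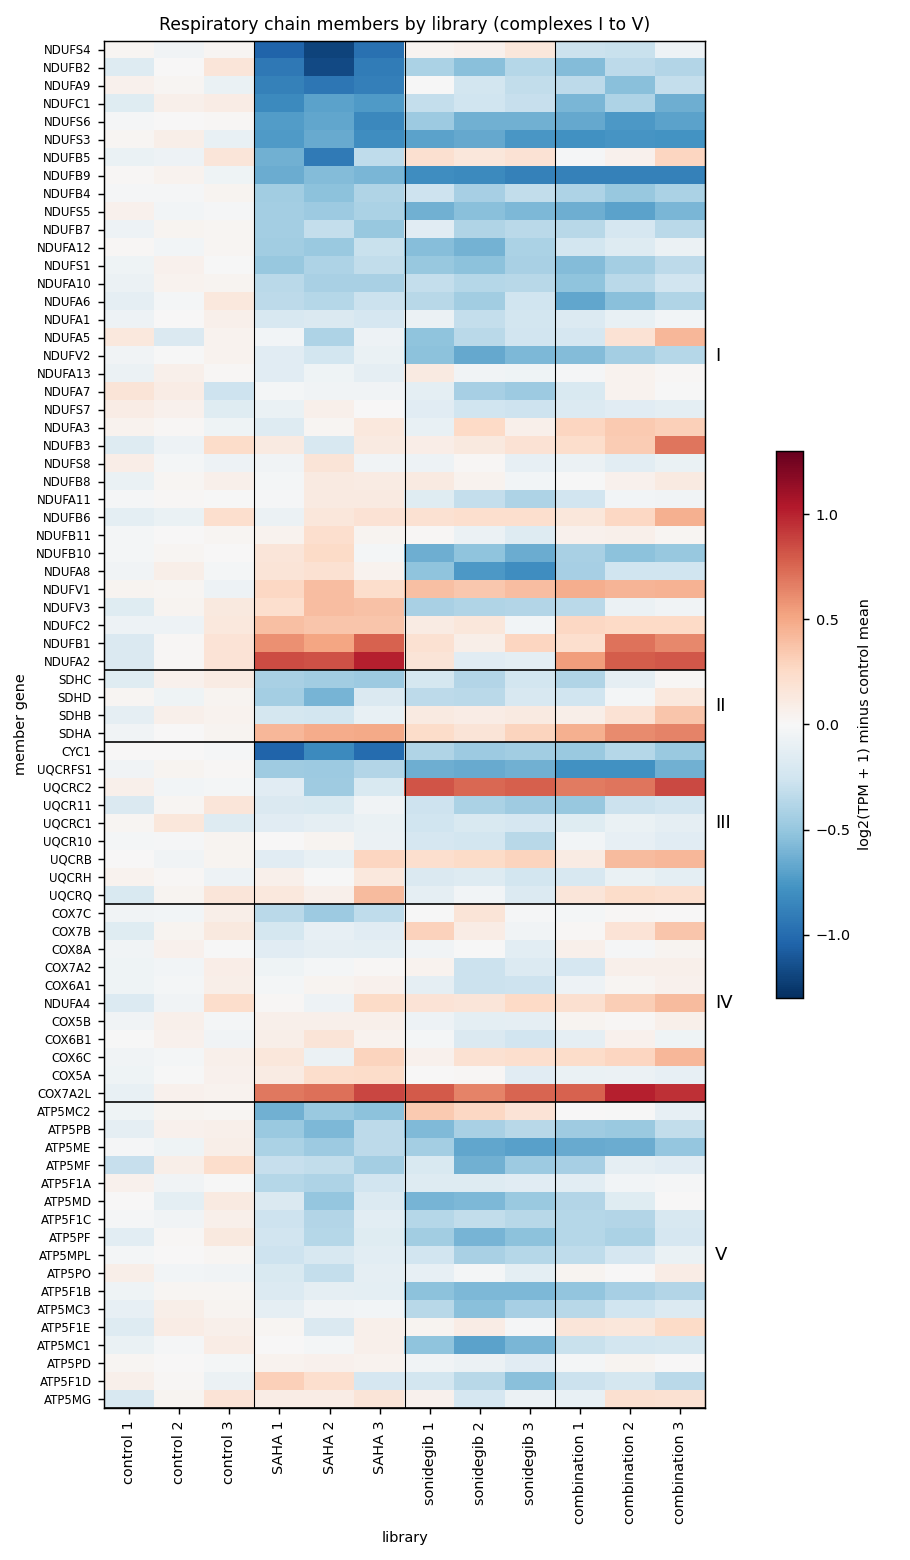
Log2 change of the members, 1 of the 77 left out (rows, grouped by complex I to V and ordered within it by the change after SAHA) in each of the 12 libraries (columns) relative to the mean of the 3 control libraries. The colour scale runs from -1.3 to 1.3. Lowered members are blue and raised ones red: NDUFS4 is blue in the SAHA columns (-1.07), NDUFA2 is red there (0.90), and COX7A2L is red in all treated columns.

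Changes were tested on log2(TPM + 1) with limma across 13937 genes, with Benjamini-Hochberg adjustment, and calls were made under an adjusted p of 0.05. After SAHA, 35 of the 77 members fell and 8 rose, and rescaling without mitochondrial and ribosomal RNA genes raised the 8 to 15. Among all tested genes 26.9% were called lower and 31.8% higher (58.7% in either direction), so the members' share of falls (45.5%) was above the background and their share of rises (10.4%) below it. The members' median change was -0.14, against 0.05 for all tested genes. After sonidegib 42 members fell and 5 rose, against 29.2% of tested genes called lower and 26.1% called higher (55.3% in either direction). The members' median was -0.22, against -0.02. This split depended on the scaling: under quantile normalization 21 fell and 21 rose, with a members' median of -0.05.

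With the combination, 29 members were lower than in control and 14 were higher, against a background of 34.0% lower and 29.7% higher (63.7% in either direction). The members' share of falls (37.7%) lay close to the background. Under quantile normalization 17 were lower and 29 higher. The members' median was -0.10, against -0.02 for all tested genes. Against SAHA alone the combination had 21 members higher and 15 lower (background 18.0% higher, 33.0% lower, 50.9% in either direction), with 32 higher and 7 lower under median-of-ratios scaling and 44 higher and 7 lower under quantile normalization. Against sonidegib alone it had 13 higher and 4 lower (background 17.5% higher, 21.0% lower, 38.5% in either direction). Rescaling without mitochondrial and ribosomal RNA genes raised the 13 to 27, and leaving out the third combination library lowered it to 7.

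**Figure D2:**
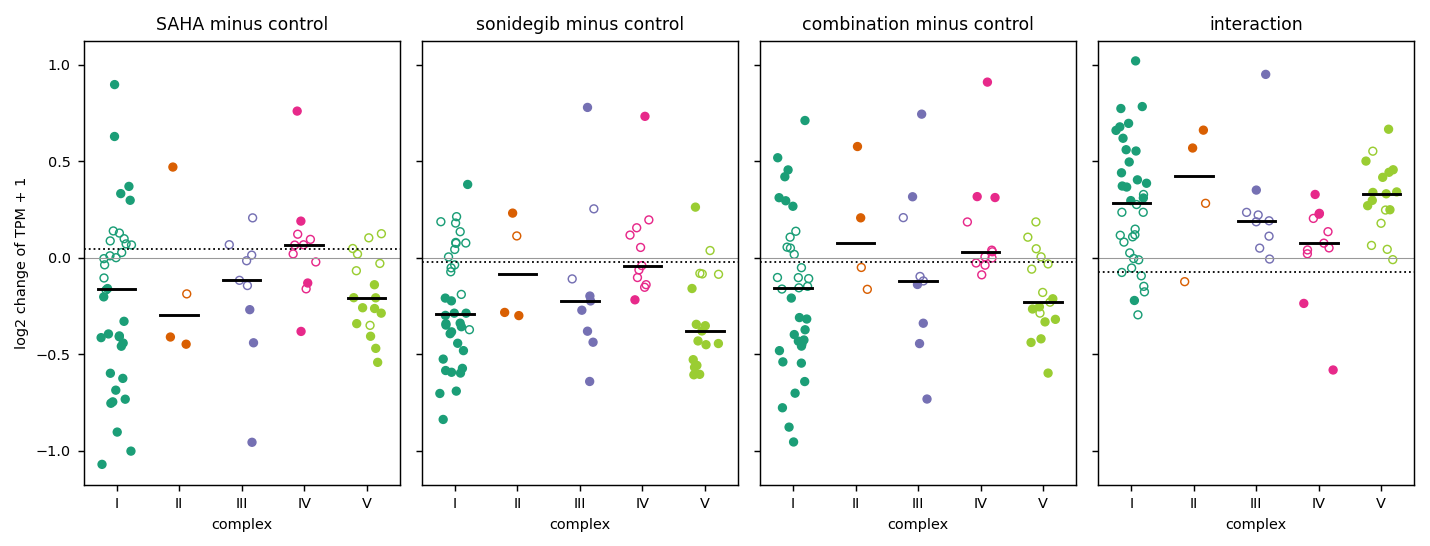
Log2 change of every member by complex after SAHA, sonidegib and the combination, each against control, and for the interaction described further on. Each point is 1 gene, filled where it was called, the short bar is the median of the complex and the dotted line the median of all tested genes. The complex V medians lie below the dotted line after SAHA and sonidegib, at -0.21 and -0.38, and the complex IV medians lie near it.

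By complex, the counts below stand against 26.9% of all tested genes called lower and 31.8% higher after SAHA, 29.2% and 26.1% after sonidegib, and 34.0% and 29.7% with the combination. After SAHA 18 of the 36 complex I members fell and 5 rose, 10 of the 17 complex V members fell and none rose, and 3 of the 9 complex III members fell, a share (33.3%) near the background, and none rose. In complex II 2 of 4 fell and 1 rose, and in complex IV 2 of 11 fell and 2 rose. After sonidegib the counts lower and higher were 21 and 1 in complex I, 2 and 1 in complex II, 6 and 1 in complex III, 1 and 1 in complex IV, and 12 and 1 in complex V. With the combination they were 17 and 7, 0 and 2, 4 and 2, 0 and 3, and 8 and 0, in the same order of complexes. With the TPM as deposited, the median change of complex IV lay between -0.04 and 0.07 in these 3 comparisons. That of complex I was -0.16, -0.29 and -0.16 after SAHA, sonidegib and the combination. The median over all members depended on the scaling. It was -0.14, -0.22 and -0.10 in the same order as deposited, and -0.11, -0.05 and 0.10 under quantile normalization. Differences between complexes were not tested.

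Complex I takes electrons from NADH in the matrix arm tip, where NDUFV1 carries the flavin and NDUFS1 holds iron-sulphur clusters. NDUFV1 was 325, 323 and 303 TPM in control, 383, 417 and 370 with SAHA, 415, 404 and 419 with sonidegib and 439, 430 and 435 with both. All treated libraries were above all control libraries. The rise was 0.30 ± 0.05 after SAHA (log2 ± SE, limma adjusted p = 0.000286), 0.38 ± 0.05 after sonidegib (adjusted p = 5.45e-05) and 0.45 ± 0.05 with both (adjusted p = 8.53e-06). Its electron-transfer partner NDUFV2 moved the other way. NDUFV2 was 420 to 449 TPM in control, 367 to 407 with SAHA, 274 to 299 with sonidegib and 294 to 336 with both. NDUFS1 fell from 52.6, 57.2 and 54.7 TPM in control to 38.6, 41.3 and 43.8 with SAHA, 38.7, 37.6 and 40.7 with sonidegib and 36.9, 40.0 and 43.2 with both, so that the 3 treated groups overlapped one another and none reached control.

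NDUFS4, an accessory subunit of the same arm (ENSG00000164258, chr5:53560633-53683340 on GRCh38), showed the largest fall after SAHA. Its level was 62.0, 59.2 and 61.9 TPM in control and 29.1, 25.9 and 30.7 with SAHA. It was 62.6, 63.4 and 67.5 with sonidegib and 50.2, 49.9 and 58.1 with both. The SAHA libraries were far below all others, and the combination libraries lay between them and control. The change was -1.07 ± 0.08 after SAHA (limma adjusted p = 3.33e-07), 0.08 ± 0.08 after sonidegib (adjusted p = 0.404) and -0.21 ± 0.08 with both (adjusted p = 0.0309). NDUFS6, a zinc-binding subunit of this arm, fell by 0.75 after SAHA, by 0.57 after sonidegib and by 0.70 with both. NDUFA2, also of this arm, went up instead. It was 112, 130 and 145 TPM in control, 232, 228 and 259 with SAHA, 144, 116 and 117 with sonidegib and 186, 222 and 224 with both. Both groups given SAHA were above both groups without it, and the rise after SAHA was 0.90 ± 0.11 (adjusted p = 3.3e-05). NDUFA2 overlaps IK and TMCO6 on the opposite strand, and since the strand setting of the counting is not given in the sources used here, reads of these genes cannot be told apart. The same holds for 39 of the 77 members, SDHC (opposite CFAP126), SDHD (TIMM8B) and ATP5F1A (HAUS1) among them.

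In the arm that binds ubiquinone, the core subunit NDUFS3 fell in every treated group. NDUFS3 was 252 to 284 TPM in control and 153 to 171, 159 to 169 and 156 to 158 in the SAHA, sonidegib and combination libraries, with the SAHA range taking in all of the others. Each treatment gave a fall of 0.70 to 0.78, and the interaction estimate was 0.66 ± 0.08 (adjusted p = 9.32e-05). The interaction estimate is the combination minus sonidegib minus SAHA plus control, that is, the departure of the combination from the sum of both single changes on the log2 scale. NDUFS3 overlaps CELF1 and KBTBD4 on the opposite strand.

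Among the subunits of the membrane arm and of its junction with the matrix arm, NDUFB2, NDUFB9 and NDUFA9 moved most. NDUFB2 (chr7:140690777-140722790) was 138, 157 and 174 TPM in control, 81.5, 68.5 and 82.5 with SAHA, 116, 106 and 120 with sonidegib and 105, 123 and 119 with both. SAHA alone gave the lowest libraries, and the sonidegib and combination libraries overlapped. NDUFB2 lies opposite BRAF and NDUFB2-AS1. NDUFB9, which lies opposite MTSS1 and TATDN1, was 514, 525 and 491 TPM in control, 326, 345 and 337 with SAHA, 290, 287 and 276 with sonidegib and 276, 277 and 277 with both. It had the largest fall of any member after sonidegib, 0.84 ± 0.04 (adjusted p = 3.52e-08). NDUFA9, which sits where the matrix and membrane arms meet, was 45.8, 44.8 and 41.2 TPM in control and 23.5, 22.3 and 23.2 with SAHA. It was 43.7, 36.9 and 34.9 with sonidegib and 34.4, 29.9 and 35.1 with both. NDUFB10 and NDUFA8 were called after sonidegib and not after SAHA, a contrast between the drugs that was not itself tested. NDUFB10 fell by 0.60 ± 0.07 after sonidegib (adjusted p = 1.48e-05), with a SAHA change of 0.13 ± 0.07 (adjusted p = 0.117). NDUFA8 fell by 0.69 ± 0.08 (adjusted p = 2.58e-05), with a SAHA change of 0.14 ± 0.08 (adjusted p = 0.167). NDUFB1 rose after SAHA, from 112, 129 and 144 TPM to 193, 182 and 218.

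**Figure D3:**
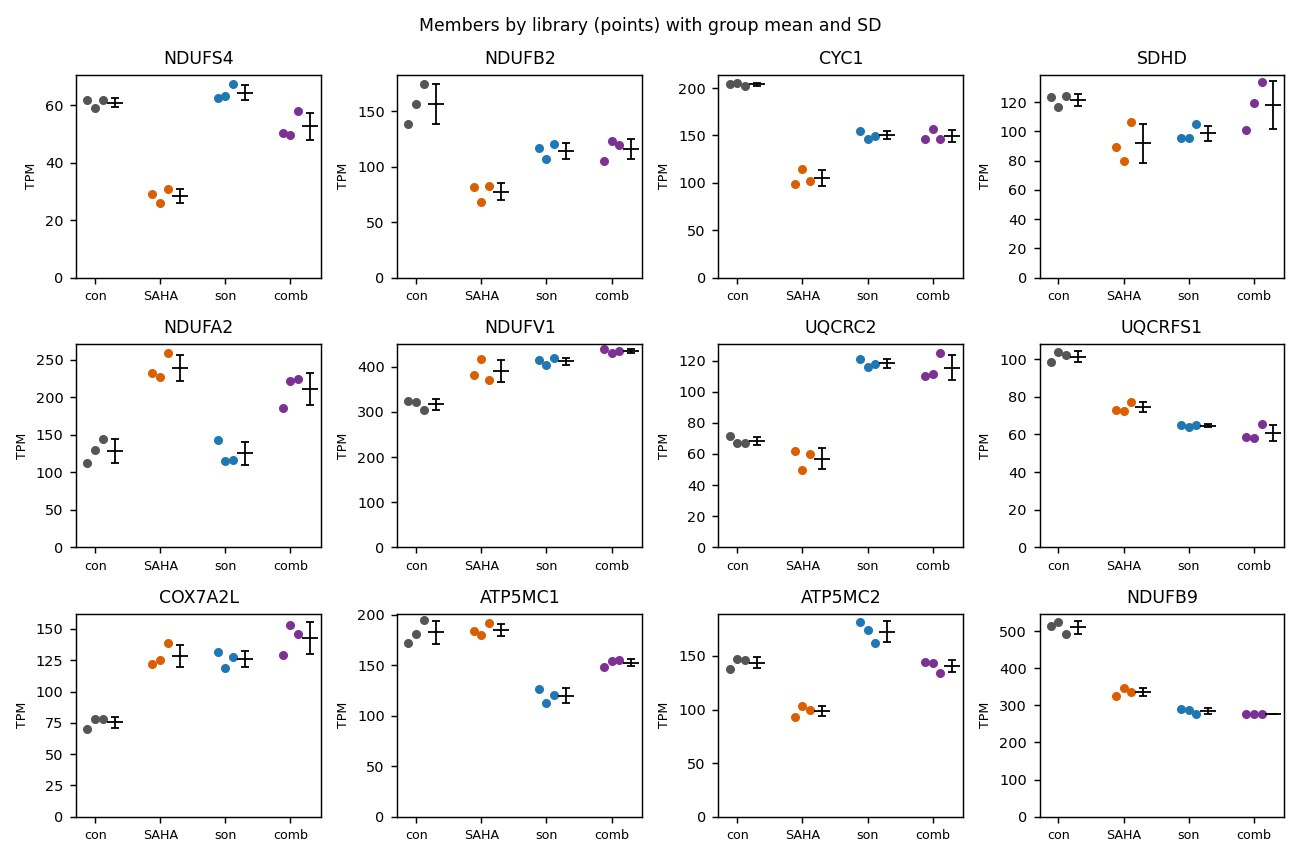
TPM of 12 members in each library (points; con is control, son sonidegib and comb the combination) with the group mean and SD beside them, each axis starting at 0. The genes were picked after values had been seen. NDUFS4, NDUFB2 and CYC1 are lowest with SAHA alone, UQCRC2 is high in both groups given sonidegib, and COX7A2L is above control in all treated libraries.

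Complex II oxidises succinate. SDHA, its flavoprotein, was 151, 156 and 160 TPM in control, 210, 218 and 219 with SAHA, 184, 174 and 190 with sonidegib and 215, 238 and 244 with both. All treated libraries were above control. SDHA rose by 0.47 ± 0.05 after SAHA (adjusted p = 1.87e-05), by 0.23 ± 0.05 after sonidegib (adjusted p = 0.00391) and by 0.58 ± 0.05 with both (adjusted p = 3.01e-06). The membrane anchors SDHC and SDHD went down with the single drugs. SDHD was 123, 117 and 124 TPM in control, 89.2, 79.7 and 106 with SAHA, 95.7, 95.1 and 105 with sonidegib and 101, 119 and 134 with both. The combination libraries spanned the control range, with a change of -0.05 ± 0.11 (adjusted p = 0.709). SDHD fell by 0.41 after SAHA and by 0.30 after sonidegib. The interaction estimates were 0.66 ± 0.16 for SDHD (adjusted p = 0.00783) and 0.57 ± 0.14 for SDHC (adjusted p = 0.00948). The sonidegib calls of SDHC and SDHD were lost under some alternatives. SDHB, the iron-sulphur subunit, was 99.0 to 113 TPM in control, 90.5 to 101 with SAHA, 115 to 117 with sonidegib and 113 to 138 with both.

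In complex III, CYC1 encodes cytochrome c1, which hands electrons to cytochrome c. CYC1 was 205, 205 and 202 TPM in control, 98.7, 114 and 102 with SAHA, 155, 147 and 149 with sonidegib and 146, 157 and 146 with both. The SAHA libraries were lowest, and the sonidegib and combination libraries overlapped. Its changes were -0.96 ± 0.06 after SAHA (adjusted p = 8.81e-08), -0.44 ± 0.06 after sonidegib (adjusted p = 6e-05) and -0.45 ± 0.06 with both (adjusted p = 3.63e-05). UQCRFS1, the Rieske iron-sulphur protein, was 98.4 to 104 TPM in control, 72.8 to 77.5 with SAHA, 63.9 to 65.3 with sonidegib and 58.3 to 65.4 with both. Its pseudogene UQCRFS1P1, which the name rule left out, had 15.8 to 20.8 TPM in control and 7.14 to 12.9 in the treated libraries, so reads may have been split between the copies. UQCRC2 (ENSG00000140740, chr16:21952660-21983660), a core protein of the matrix side, went the other way with sonidegib. It was 71.5, 66.8 and 67.3 TPM in control, 61.7, 49.4 and 59.7 with SAHA, 121, 116 and 118 with sonidegib and 110, 112 and 125 with both. Both groups given sonidegib were above both groups without it, and the rise after sonidegib was 0.78 ± 0.08 (adjusted p = 9.22e-06). Its partner core protein UQCRC1 was 151 to 188 TPM in control and 142 to 148 with sonidegib, a fall of 0.22 ± 0.07 (adjusted p = 0.0147) whose call was lost under some alternatives.

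Complex IV passes electrons to oxygen, and its nuclear subunits surround a core made in mitochondria. After SAHA 7 of 11 and after sonidegib 9 of 11 were not called. Among all tested genes 58.7% and 55.3% were called in these comparisons. COX6B1 was 831 to 897 TPM in control, 889 to 964 with SAHA, 726 to 848 with sonidegib and 794 to 894 with both, and none of its changes from control was called. COX4I1, outside the name rule, was 1141 to 1206 TPM in control, with changes from control of -0.04, -0.01 and 0.01 after SAHA, sonidegib and both, none called. COX7C fell after SAHA alone, from 336, 338 and 365 TPM to 271, 250 and 275, with 345, 390 and 343 with sonidegib and 339, 351 and 346 with both. COX7A2L (ENSG00000115944, chr2:42333546-42425088), a COX7A-like protein known for joining complexes III and IV in supercomplexes, was 70.3, 78.4 and 77.7 TPM in control. It was 122, 125 and 138 with SAHA, 131, 119 and 128 with sonidegib and 129, 153 and 146 with both. All treated libraries were above control and the 3 treated groups overlapped. It rose by 0.76 ± 0.08, 0.73 ± 0.08 and 0.91 ± 0.08 (limma adjusted p = 6.06e-06, 1.1e-05 and 1.15e-06), and its interaction estimate was -0.58 ± 0.11 (adjusted p = 0.00199). Other isoforms of these subunits were low: COX6A2 had a mean of 0.0942 TPM and COX8C of 0.0133 TPM, and COX7A1 and COX4I2 were listed at 0. COX6B2 was 0, 0.06 and 0.06 TPM in control, 0.68, 0.41 and 0.41 with SAHA, 0.13, 0.05 and 0.23 with sonidegib and 1.09, 1.85 and 1.15 with both.

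In complex V the catalytic head subunits ATP5F1A, ATP5F1B and ATP5F1C were 317 to 340, 689 to 729 and 327 to 354 TPM in control. ATP5F1B, the catalytic beta subunit, was 630, 661 and 653 TPM with SAHA, 494, 475 and 476 with sonidegib and 501, 530 and 550 with both. Both groups given sonidegib were below both groups without it, with a fall of 0.57 ± 0.04 after sonidegib (adjusted p = 1.07e-06). ATP5F1A, the alpha subunit, was instead lowest with SAHA alone, at 252, 248 and 275 TPM, and was 292, 292 and 295 with sonidegib and 298, 320 and 325 with both. Its sonidegib change of -0.16 (adjusted p = 0.0202) was 0.10 under quantile normalization. ATP5PB, of the peripheral stalk that holds the head still, fell by 0.47 ± 0.08 after SAHA (adjusted p = 0.000344), by 0.45 ± 0.08 after sonidegib (adjusted p = 0.000547) and by 0.42 ± 0.08 with both (adjusted p = 0.000676). ATP5ME, a small membrane subunit, was 518 to 568 TPM in control and 390 to 424, 330 to 398 and 343 to 380 in the SAHA, sonidegib and combination libraries.

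ATP5MC1, ATP5MC2 and ATP5MC3 encode the same mature c subunit of the proton-carrying ring, with different import sequences. The shares of the 3 genes in their summed TPM shifted, and protein was not measured. ATP5MC1 was 172, 181 and 194 TPM in control, 184, 179 and 191 with SAHA, 127, 112 and 120 with sonidegib and 149, 154 and 155 with both. ATP5MC2 was 138, 147 and 146 TPM in control, 93.1, 103 and 99.3 with SAHA, 182, 174 and 162 with sonidegib and 145, 143 and 134 with both. So ATP5MC2 was lowest with SAHA and highest with sonidegib, and the combination overlapped control. ATP5MC2 fell by 0.54 ± 0.06 after SAHA (adjusted p = 9.08e-06) and rose by 0.26 ± 0.06 after sonidegib (adjusted p = 0.00251), while ATP5MC1 changed by 0.02 ± 0.06 (adjusted p = 0.806) and fell by 0.60 ± 0.06 (adjusted p = 5.6e-06). The summed level of the 3 genes was 609 ± 32.3 TPM in control and 553 ± 15.0 TPM after SAHA (SD, n = 3). It was 500.1 ± 26.0 TPM after sonidegib and 528 ± 13.3 TPM in the combination group. The share of ATP5MC2 in that sum was 23.6% ± 0.48, 17.8% ± 0.61, 34.5% ± 1.63 and 26.6% ± 1.68 in the same order.

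The interaction was called for 37 members, 34 of them positive and 3 negative, against 11.8% of all tested genes called positive and 19.7% negative (31.4% in either direction). The members' median was 0.24, against -0.07 for all tested genes. A positive value here means that the combination lay above the sum of the single changes. By complex the positive and negative calls were 17 and 1 of 36 in complex I, 2 and 0 of 4 in complex II, 2 and 0 of 9 in complex III, 2 and 2 of 11 in complex IV, and 11 and 0 of 17 in complex V. The largest estimates were those of NDUFB2 at 1.02 ± 0.14 (adjusted p = 0.000267), CYC1 at 0.95 ± 0.08 (adjusted p = 1.06e-05), NDUFS4 at 0.78 ± 0.11 (adjusted p = 0.000261), NDUFA12 at 0.77 ± 0.10 (adjusted p = 0.000137) and NDUFA9 at 0.70 ± 0.13 (adjusted p = 0.00156). The 3 negative ones were COX7A2L, NDUFV1 at -0.22 and COX5A at -0.24, and the calls of NDUFV1 and COX5A were lost under several alternatives. NDUFA12, an accessory subunit of the matrix arm, was 149, 144 and 150 TPM in control, 108, 105 and 120 with SAHA, 100.4, 96.0 and 111 with sonidegib and 125, 131 and 139 with both. The combination was above SAHA by 0.25 ± 0.07 (adjusted p = 0.0103) and above sonidegib by 0.36 ± 0.07 (adjusted p = 0.00153), and its change from control was -0.16 ± 0.07 (adjusted p = 0.0557).

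The effect of SAHA can be read without sonidegib (SAHA minus control) and with it (combination minus sonidegib), from pairs of groups that share no library. Across the 77 members these changes had a Pearson r of 0.65 and a Spearman rho of 0.59, and across all tested genes 0.55 and 0.59. The points share libraries within each axis, so these are descriptions. The change was smaller in size with sonidegib present for 53 members (68.8%), against 67.1% of all tested genes. For the sonidegib effect without and with SAHA, r was 0.56 and rho 0.53 in the members, and 0.54 for both measures in all tested genes, and 47 members (61.0%) had the smaller change with SAHA present, against 53.5%. NDUFA2 kept a change of like size in both settings, 0.90 and 0.75. NDUFB2 and CYC1 had -1.0 and -0.96 without sonidegib and 0.02 and -0.01 with it.

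**Figure D4:**
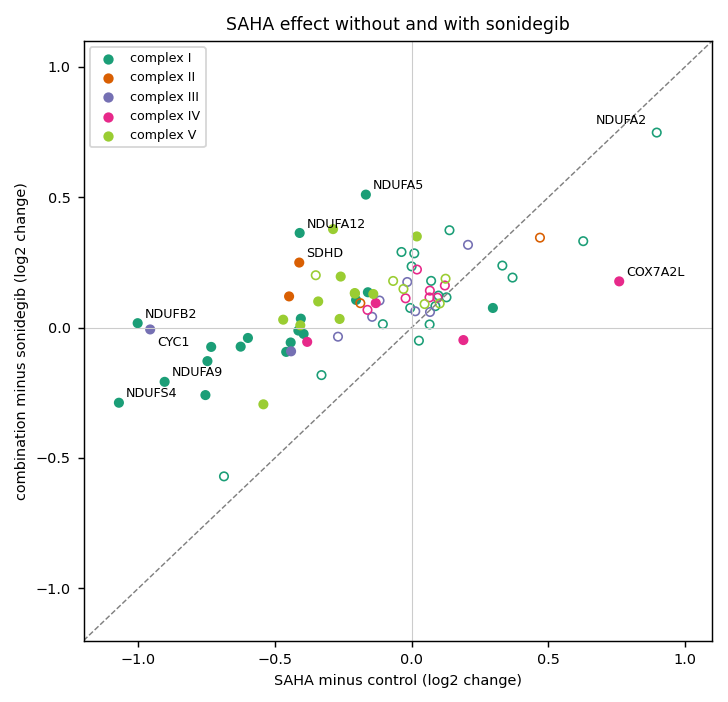
Log2 change after SAHA without sonidegib (x axis) and with it (y axis) for the 77 members, coloured by complex. Points are filled where the interaction was called, and the dashed line marks equal changes. NDUFB2, CYC1, NDUFA9 and NDUFS4 lie far above the line on the left, and NDUFA2 lies near it.

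The 13 messenger RNAs of the mitochondrial genome, which encode the partner subunits of complexes I, III, IV and V, did not follow the nuclear members. Their summed level was 75864, 63160 and 65507 TPM in control, 103826, 97562 and 88274 with SAHA, 66387, 74652 and 64889 with sonidegib and 96631, 87402 and 78199 with both. The sums of all libraries given SAHA were above those of all libraries without it. The ratio of this sum to that of the nuclear members averaged 3.06 ± 0.36 in control and 3.64 ± 0.32 after sonidegib (SD, n = 3). It averaged 4.72 ± 0.44 after SAHA and 4.36 ± 0.62 in the combination group. After SAHA 13 of 13 rose, against 31.8% of all tested genes, and after sonidegib 5 rose and 7 fell, against 26.1% and 29.2%. With the combination 6 were higher and 4 lower than control, against 29.7% and 34.0%. The mean of MT-CO1 was 10070 TPM in control and 22626 with both, and that of MT-ND3 was 6860 and 4984. The 13 come from the same genome, so their calls may not be independent of one another. MT-CYB, the complex III subunit of that genome, fell by 1.62 ± 0.10 after sonidegib (limma adjusted p = 1.33e-07). The ratio to nuclear members in complex III fell from 1.26 ± 0.14 to 0.46 ± 0.03. MT-ND6 of complex I rose by 1.11 ± 0.12 (adjusted p = 9.95e-06), but the complex I mRNAs split. MT-ND4, MT-ND4L and MT-ND5 also had higher means with sonidegib, and MT-ND1, MT-ND2 and MT-ND3 lower ones. MT-ND4 averaged 4078 TPM in control and 7468 with sonidegib, and MT-ND2 averaged 2719 and 1039. The complex I ratio was 2.45 ± 0.27 in control and 3.60 ± 0.31 with sonidegib, while the summed nuclear members of complex I averaged 9444 and 7750 TPM.

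**Figure D5:**
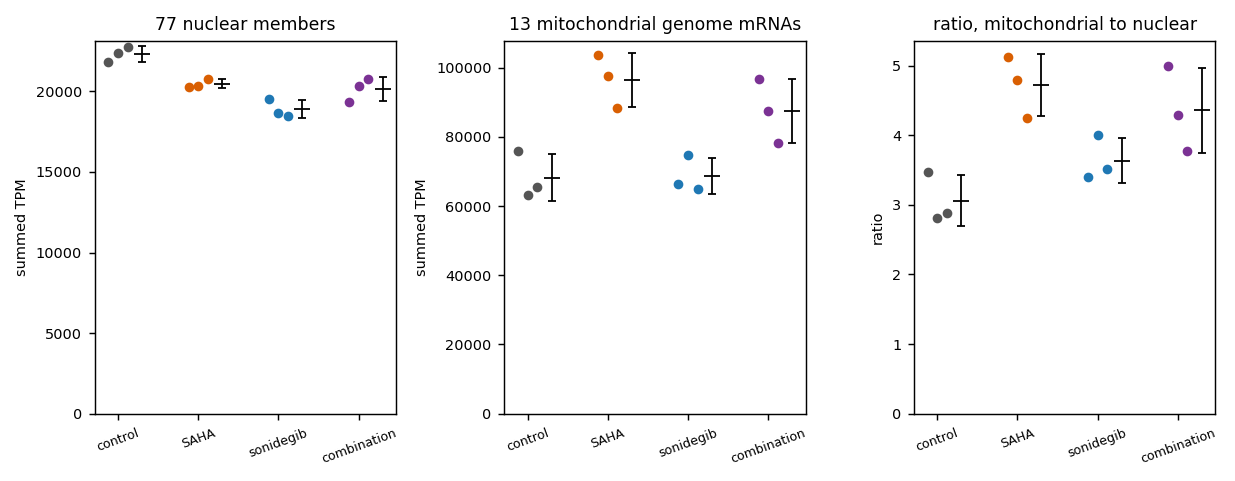
Summed TPM of the 77 nuclear members, summed TPM of the 13 mitochondrial genome mRNAs, and the ratio of the second to the first, by library (points) with the group mean and SD; axes start at 0. The nuclear sum is highest in control at 22320 TPM, and the ratio is highest with SAHA at 4.72.

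Other genes of the pathway were read from lists that were not picked for how they moved here, although earlier results of these data were known. Their counts stand against 26.9%, 29.2% and 34.0% of all tested genes called lower after SAHA, sonidegib and both, and 31.8%, 26.1% and 29.7% called higher. Of 51 assembly factors, 19 fell and 8 rose after SAHA, 28 fell and 6 rose after sonidegib, and 25 fell and 12 rose with both. NDUFAF8, a complex I assembly factor, fell from 101, 108 and 115 TPM in control to 36.8, 27.7 and 26.1 with SAHA, 38.9, 32.1 and 33.2 with sonidegib and 29.6, 35.0 and 31.6 with both. COX20, which helps insert a complex IV core subunit, fell by 1.78 ± 0.08 after sonidegib (adjusted p = 1.51e-08). Among the complex II factors, SDHAF1 and SDHAF4 rose by 0.81 and 1.31 after sonidegib. The complex II factors did not move together. SDHAF2 averaged 39.7 TPM in control and 26.5 with sonidegib, and SDHAF3 averaged 8.32 and 10.6. Of 15 genes for cytochrome c and ubiquinone synthesis, 8 fell and 3 rose after SAHA, 7 fell and 4 rose after sonidegib, and 7 fell and 3 rose with both. CYCS, the electron carrier between complexes III and IV, was 362, 372 and 374 TPM in control, 357, 329 and 396 with SAHA, 136, 144 and 159 with sonidegib and 179, 189 and 206 with both.

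Of 16 tested regulators of respiratory genes, 5 fell and 2 rose after SAHA, 6 fell and 1 rose after sonidegib, and 9 fell and none rose with both. The regulators' share of falls after SAHA (31.2%) was near the background of 26.9%. TFAM, the mitochondrial transcription factor, was 26.3, 28.1 and 31.7 TPM in control, 21.6, 16.6 and 26.9 with SAHA, 9.36, 11.2 and 12.8 with sonidegib and 15.8, 13.8 and 21.2 with both. NRF1 rose by 0.39 ± 0.13 after SAHA (adjusted p = 0.0239) and fell by 0.54 ± 0.13 with both (adjusted p = 0.00408), and PPARGC1A was near 0, with a control mean of 0.0867 TPM. Of 17 tricarboxylic acid cycle genes, 6 fell and 5 rose after SAHA, 7 fell and 3 rose after sonidegib, and 3 fell and 7 rose with both. Their shares after SAHA (35.3% lower, 29.4% higher) stand beside 26.9% and 31.8% of all tested genes, after sonidegib beside 29.2% and 26.1%, and with both beside 34.0% and 29.7%. The same backgrounds hold for the next lists. Of 16 genes for inner membrane import and ADP exchange, 10 fell and 2 rose after SAHA, 11 fell and 3 rose after sonidegib, and 8 fell and 2 rose with both. Of 10 tested subunits and partners outside the name rule, 5 fell in each of these comparisons, and 2, 1 and 2 rose. NDUFAB1, a complex I subunit and acyl carrier protein, fell by 0.45, 0.62 and 0.49. ATP5IF1, the inhibitor of ATP synthase, rose by 0.49 ± 0.08 after SAHA (adjusted p = 0.000248), with changes of 0.06 and 0.17 after sonidegib and both that were not called.

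Libraries with sonidegib stood apart in RNA composition. The 17 5S ribosomal RNA genes summed to 0 TPM in the 6 libraries without sonidegib and to 1488 to 12641 TPM in the 6 with it. Mitochondrial ribosomal RNA made up 0.565% to 0.670% of TPM in control, 1.18% to 1.35% with SAHA alone and 2.06% to 2.86% in libraries given sonidegib. The 7 epithelial markers of the line summed to 10141 to 11368 TPM without sonidegib and 5492 to 6210 TPM with it. Keratin genes had the highest levels among these markers. After sonidegib 5 of the 7 were called lower and 0 higher, against 29.2% and 26.1% of all tested genes. With both drugs 5 were lower and 1 higher than control, against 34.0% and 29.7%. Markers of other cell types were low apart from CD14, at 207 to 336 TPM for the 5 leukocyte markers together, with PTPRC near 0. The 5 fibroblast and endothelial markers summed to 3.5 to 13.7 TPM, the 5 erythroid and hepatic markers to 0 to 3.2 TPM (HBB and TTR at 0), and the 3 receptor genes ESR1, PGR (at 0) and ERBB2 to 3.31 to 27.1 TPM. The part of these shifts in the members' changes was not tested.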

How the data were processed

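Total RNA of 12 MDA-MB-468 libraries, 3 per group by the sample labels, was sequenced after TRIzol extraction and standard Illumina library preparation, per the labels' protocols. The deposited table gives TPM per gene and library, made by the authors, rounded to 2 decimals. Bowtie2 2.4.1 and GRCh38 are named in the submitters' processing notes; the quantifier, annotation release and strand setting are not given in the sources used here. TPM keep no depth, so counting error is unknown. All 77 members matched GENCODE release 29 (coordinates, GRCh38), and 39 overlap a gene on the opposite strand.

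The values were analysed as log2(TPM + 1), a scale that understates changes of low genes, with limma 3.58.1 in R 4.3.3 (4 group means, moderated variances with a trend). Tests covered genes averaging 1 TPM or more and were two-sided, with Benjamini-Hochberg adjustment over all of them. The fit was tested on simulated data, where it recovered fewer of the changed genes than first required; that requirement was then replaced by limits on bias and false calls, and the fit was left as it was. No set was tested. Values of 1 member and 1 marker are not reported here by name; both are in the counts and sums. The naming rule took the largest called rises and falls per comparison and complex, the 5 largest interactions in each direction and fixed core subunits. From the pathway lists it took the largest called changes and some regulators. Some changes given above lie outside this rule. Among them are those of ATP5PB, of NDUFB10 and NDUFS6 after sonidegib, and the NDUFS3 interaction. Members and lists were chosen with earlier results of these data known, and the promoter motifs, the printed promoters and the genes plotted by library were chosen after values were seen. Alternatives were pseudocount, filter, scaling, composition, replicate block, variance trend, samples in the fit and leaving out each library.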

Additional observations from a re-analysis of the deposited data

Results flagged for a closer look

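The effect of SAHA differed with and without sonidegib, by the test of the interaction in limma, for 37 respiratory chain members, 34 positive and 3 negative. Among all tested genes 31.4% were called, 11.8% positive and 19.7% negative. The largest positive estimates (log2) were 1.02 for NDUFB2, 0.95 for CYC1, 0.78 for NDUFS4, 0.77 for NDUFA12 and 0.70 for NDUFA9. The negative ones were -0.22 for NDUFV1, -0.24 for COX5A and -0.58 for COX7A2L.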

How the results depend on the processing

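TPM give no depth, and 3 libraries per group limit precision. Leaving out 1 library gave ranges of 8 to 10 members higher and 30 to 37 lower after SAHA, 5 to 8 and 35 to 46 after sonidegib, 9 to 15 and 26 to 31 with both, 14 to 22 and 12 to 16 for the combination against SAHA, 7 to 19 and 3 to 5 against sonidegib, and 30 to 37 positive and 1 to 3 negative interactions. Changes over 1.5 times came without the first control library (9 higher with the combination), the third control library (8 higher after sonidegib), the third combination library (9 higher against control, 7 against sonidegib), the second combination library (8 higher against sonidegib, 1 negative interaction), and the second SAHA or first sonidegib library (1 negative interaction each); the cause was not tested. Median-of-ratios scaling gave 9 higher after sonidegib, 32 higher and 7 lower for the combination against SAHA, 20 higher against sonidegib and 1 negative interaction. Scaling to the 75th percentile gave 11, 35 and 6, 20 and 1. Quantile normalization gave 21 higher and 21 lower after sonidegib, 29 and 17 with the combination, and 44 and 7 against SAHA. Without mitochondrial and ribosomal RNA genes 15 rose after SAHA and 27 were higher with the combination than with sonidegib. Without a filter or a variance trend 1 negative interaction remained in each case. Deviations of same-numbered replicates had correlations of -0.06 to 0.11 (1 of 18 over 0.1, median 9.1e-05). Those of differently numbered replicates were -0.11 to 0.097 (0 of 36 over 0.1, median -0.0088). Whether the numbers mark pairs is not known. A replicate block gave 8 higher after sonidegib, against 5 without it. For the combination against sonidegib it gave 19 higher, against 13. Over all tested genes the block raised the number of calls in every comparison. The next values cover changes under the naming rule, and not those given outside it, such as the changes of ATP5PB. Among those called in either setting, signs changed under quantile normalization alone. After sonidegib NDUFS7 became 0.014, COX5B 0.12, ATP5F1A 0.10 and COX5A 0.21. With the combination against control COX7A2 became 0.23, ATP5MC2 0.18, ATP5F1A 0.19, ATP5MC3 0.0081 and COX5A 0.14. Against SAHA UQCRC1 became 0.25, COX7A2 0.20, COX5B 0.15, ATP5MC3 0.034 and ATP5F1C 0.17. The cause was not tested.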
